A study of Bos taurus with 54 samples.

Results

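MHC class II molecules display peptides from engulfed proteins to CD4+ T cells, and in blood they are made mainly by B cells, monocytes and dendritic cells. Each molecule is an alpha and a beta chain that assemble on the invariant chain CD74, which blocks the groove until proteases degrade it in the endosome. The DM heterodimer then exchanges the remaining fragment for antigen, the DO heterodimer restrains DM, and the coactivator CIITA switches on the whole gene set. The 7 genes described here are the bovine members of this pathway BOLA-DRA, BOLA-DRB3, BOLA-DMA, BOLA-DMB, BOLA-DOB, CD74 and CIITA, chosen by name from the 32637 genes counted in every library.

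The blood came from 15 Holstein male calves held in climate control rooms, sampled in the morning before heat (thermoneutral control) and in the evening directly after 12 h of heat (heat stress), and red cells were lysed before RNA extraction. Libraries of the 3′ end of mRNA were made from each RNA sample with Takara SMART-Seq v4 3′ DE, with Lexogen QuantSeq or with both, 54 libraries in all. Heat stress was compared with the control within each kit in 13 libraries against 13, and 12 animals per kit had both times. The libraries of animal 20 were left out. Their sample labels gave heat stress alone, while the study's design has a calf with control samples alone. The design does not name animal numbers, so the match of that calf to animal 20 is inferred from order. Matched so, the other calves that lack a library also have control and heat stress exchanged between design and labels. The labels were followed here. No sample was taken in the evening without heat, so heat and time of day cannot be told apart.

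Uniquely mapped reads on genes ranged from 5140595 to 20699030 per Takara library and from 4516761 to 58521751 per Lexogen library. The members were read with 219 or more counts in every Takara library. In Lexogen libraries counts fell as low as 5 for CIITA, and BOLA-DOB was at 0 in 11 of the 26 libraries. Markers of B cells, T cells, monocytes, neutrophils and platelets were present in both kits, and among the erythroid markers HBB averaged 1611 CPM (counts scaled to a common library size by trimmed mean of M-values, TMM) in Takara controls. In whole blood, fewer cells of a type and less RNA per cell cannot be told apart.

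BOLA-DRA (chromosome 23, 25838391 to 25843092, ARS-UCD2.0) encodes the DR alpha chain, the non-polymorphic partner of the DR dimer. In Takara libraries it ran from 952 to 2051 CPM (median 1402) in the 13 controls and from 524 to 1867 CPM (median 1009) under heat stress. The groups overlapped, although 6 of 13 heat stress libraries lay below the lowest control. The log2 fold change was -0.36 (SE 0.20, edgeR adjusted p = 0.169). In Lexogen libraries it ran from 285 to 968 CPM (median 521) in controls and from 85.9 to 869 CPM (median 253) under heat stress. Here 7 of 13 heat stress libraries were below every control, with a log2 fold change of -0.67 (SE 0.25, edgeR adjusted p = 0.130).

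BOLA-DRB3 (chromosome 23, 25723717 to 25734819) encodes the main expressed DR beta chain of cattle. Takara values ran from 477 to 1428 CPM (median 850) in controls and from 302 to 1319 CPM (median 715) under heat stress. Only 3 heat stress libraries were below the lowest control, and the log2 fold change of -0.28 (SE 0.24, edgeR adjusted p = 0.375) did not pass the test. Lexogen values ran from 94.7 to 373 CPM (median 215) in controls and from 43.3 to 333 CPM (median 115.2) under heat stress, with a log2 fold change of -0.38 (SE 0.26, edgeR adjusted p = 0.510). DRB3 has close relatives in the genome, so its count rests on reads that mapped to a single place, and allelic sequence can move it between animals.

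CD74 (chromosome 7, 61747919 to 61755725), the invariant chain, lies outside the class II region. Its Takara values were 198 to 584 CPM (median 456) in controls and 113.5 to 604 CPM (median 336) under heat stress. The heat stress libraries covered the whole range of the controls and extended below it in 3 libraries. Neither kit passed the test, with log2 fold changes of -0.32 (SE 0.23, edgeR adjusted p = 0.286) in Takara and -0.34 (SE 0.22, edgeR adjusted p = 0.472) in Lexogen.

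BOLA-DMA (chromosome 23, 7263695 to 7282465), the DM alpha chain, was the single member called as down-regulated in the fits of time alone, which leave out the pairing of animals. Takara libraries held 99.5 to 215 CPM (median 153) in controls and 48.1 to 178 CPM (median 94.4) under heat stress. Of the heat stress libraries, 7 of 13 lay below every control, and 6 controls lay above every heat stress library. The log2 fold change was -0.55 (SE 0.20, edgeR adjusted p = 0.0373), and -0.70 (edgeR adjusted p = 0.0178) with the animal as a block. Members down-regulated in Takara were thus 1 of 7, beside 10.5% of the 12620 genes tested. With sense-strand counts the log2 fold change was -0.52 and the call was lost (edgeR adjusted p = 0.0587). Lexogen values ran from 8.03 to 100 CPM (median 53.4) in controls and from 20.5 to 82.5 CPM (median 29.7) under heat stress. The lowest library was the control of animal 14, and the log2 fold change of -0.55 (SE 0.29, edgeR adjusted p = 0.330) did not pass the test.

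The BOLA-DMA call in Takara also changed when single animals were left out. It was lost when the libraries of any one of 7 animals were left out, with edgeR adjusted p-values of 0.0860 without animal 7, 0.0876 without animal 15, 0.0655 without animal 16, 0.0823 without animal 18, 0.0529 without animal 29, 0.0555 without animal 36 and 0.0747 without animal 40. The log2 fold change itself stayed between -0.62 and -0.47 over the 14 animals left out in turn. Calls over all genes also fell in these 7 settings. The number down-regulated went from 1321 of 12620 to between 787 of 12685 (without animal 36) and 1208 of 12711 (without animal 29).

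BOLA-DMB (chromosome 23, 7246590 to 7253434), the DM beta chain, held 191 to 517 CPM (median 353) in Takara controls and 106 to 474 CPM (median 254) under heat stress. Its Takara log2 fold change was -0.31 (SE 0.21, edgeR adjusted p = 0.258). In Lexogen controls ran from 93.9 to 244 CPM (median 134) and heat stress libraries from 32.7 to 169 CPM (median 87.3), and 9 of 13 heat stress libraries were below every control. The log2 fold change was -0.66 (SE 0.21, edgeR adjusted p = 0.0578), which missed the threshold of 0.05. Of the 6 members tested in Lexogen, 0 passed at an adjusted p under 0.05, where 0.459% of the 11108 genes tested were down-regulated. At an unadjusted p under 0.05 there were 2 members (BOLA-DRA and BOLA-DMB), beside 1877 of the 11108 genes in either direction. DESeq2 on all expressed genes called BOLA-DMB (adjusted p = 0.0316). Without animal 14, edgeR called both BOLA-DMB (adjusted p = 0.0142) and BOLA-DRA (adjusted p = 0.0205), beside 64 of 11157 genes down-regulated. Without animal 41, edgeR called BOLA-DMB (adjusted p = 0.0312), beside 59 of 11086.

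BOLA-DOB (chromosome 23, 7114328 to 7122816) encodes the DO beta chain, which is made chiefly by B cells. In Takara its groups covered nearly the same range, 46.7 to 147 CPM (median 112.6) in controls and 36.9 to 167 CPM (median 107) under heat stress. The log2 fold change was 0.02 (SE 0.19, edgeR adjusted p = 0.961), and its sign turned under other scalings and filters. In Lexogen the gene gave 461 reads over 26 libraries against 32159 in Takara, and was left untested there because too few libraries passed the filter on low counts.

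CIITA (chromosome 25, 9542385 to 9601549), the master regulator of the pathway, ran from 76.9 to 135 CPM (median 118.97) in Takara controls and from 26.9 to 145 CPM (median 70.4) under heat stress. The controls were tightly grouped, and 7 of 13 heat stress libraries fell below the lowest of them. The log2 fold change was -0.45 (SE 0.21, edgeR adjusted p = 0.112) and passed the test only with the animal as a block, at -0.61 (SE 0.22, edgeR adjusted p = 0.0489). With the block, members down-regulated in Takara were 2 of 7 (BOLA-DMA and CIITA), beside 10.1% of 12651 genes. In Lexogen CIITA ran from 7.36 to 57.2 CPM (median 26.3) in controls and from 1.26 to 72.2 CPM (median 13.4) under heat stress, with a log2 fold change of -0.35 (SE 0.41, edgeR adjusted p = 0.751).

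**Figure D1:**
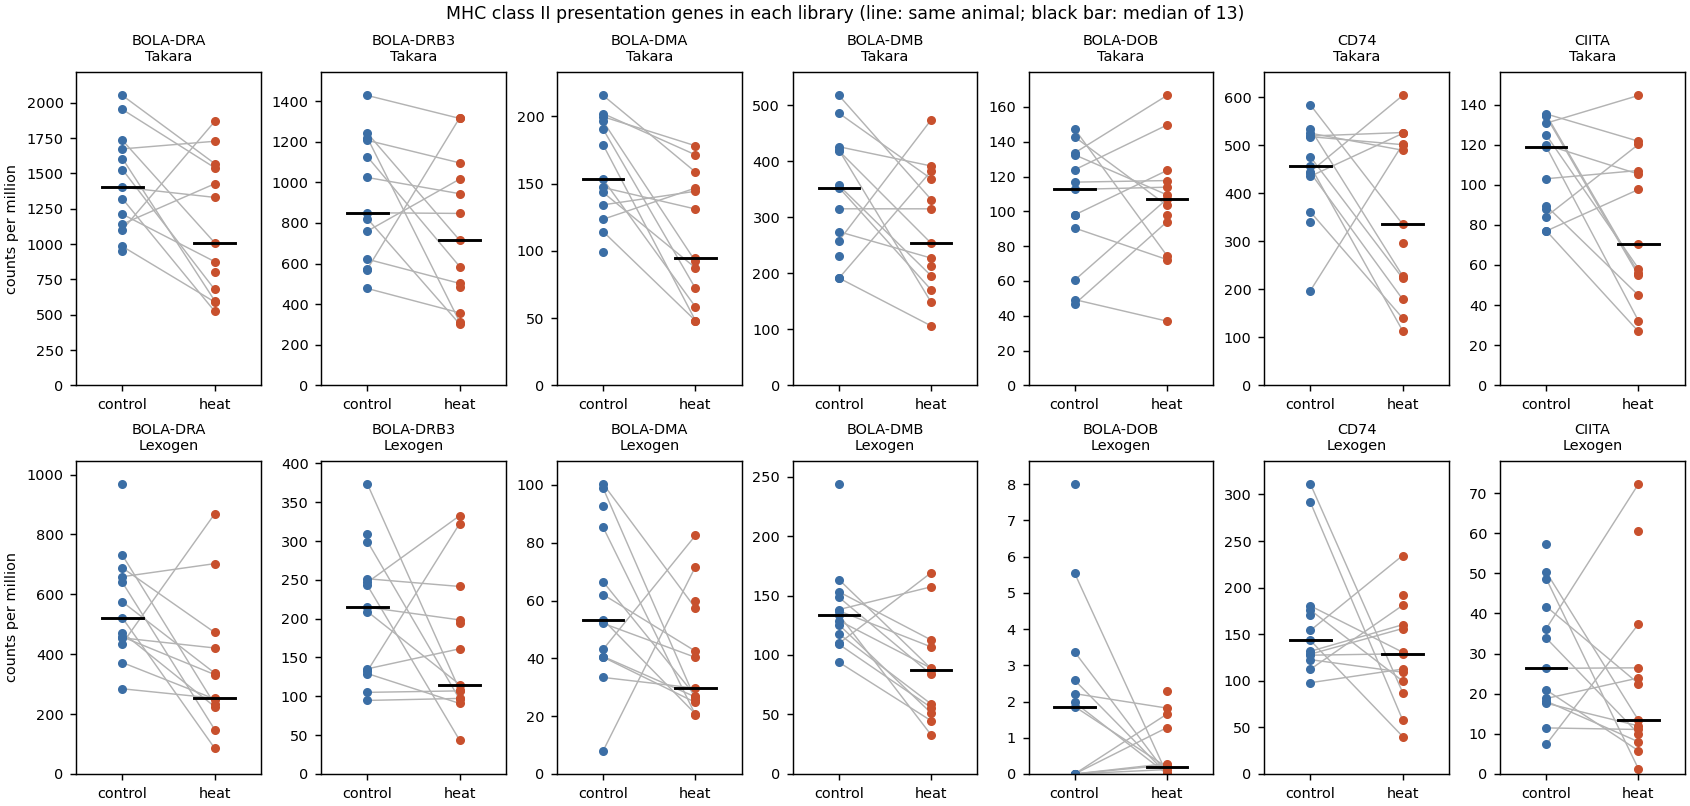
CPM of each member in each library (linear axes from 0), with grey lines joining the libraries of one animal and black bars at the median of 13 libraries. In Takara, 7 of 13 heat stress libraries lay below every control for BOLA-DMA and for CIITA, while BOLA-DOB covered about the same range at both times.

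The heat stress libraries differed more among themselves than the controls did. In Takara the SD of log2 CPM in controls and under heat stress was 0.36 and 0.65 for BOLA-DRA, 0.41 and 0.81 for CD74, and 0.32 and 0.76 for CIITA. It was larger under heat stress for 6 of the 7 members, the exception being BOLA-DOB, beside 72.9% of all genes tested. In Lexogen it was larger for 5 of 6 members, the exception being BOLA-DMA, beside 79.3% of all genes. These values are descriptions and were not tested.

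Within animals, the size of the difference varied widely. In Takara, BOLA-DRB3, BOLA-DMA and BOLA-DMB were lower under heat stress in 10 of 12 animals, BOLA-DRA in 9, CD74 and CIITA in 8 and BOLA-DOB in 5. The median over the 7 members, on the log2(CPM + 1) scale, ran from -1.39 in animal 15 to 0.76 in animal 32. At the low end, animal 15 went from 190 to 72.1 CPM for BOLA-DMA, from 476 to 223 CPM for CD74 and from 134 to 54.9 CPM for CIITA. At the high end, animal 32 went from 573 to 1319 CPM for BOLA-DRB3, and its CIITA was 103 CPM before and 107 CPM after. Animal 14 was the single animal with all 7 members higher under heat stress, with CD74 at 198 CPM in the control and 502 CPM under heat stress.

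Lexogen libraries of the same blood gave the same direction in all 10 animals paired in both kits for BOLA-DMA and CIITA. For BOLA-DMB and CD74 the direction was shared in 8 of 10, for BOLA-DRA and BOLA-DRB3 in 7 and for BOLA-DOB in 3. BOLA-DOB was near 0 in Lexogen (461 reads over all libraries) and was not tested there, so its Lexogen direction rests on few reads. The median over the 6 members tested was -2.05 in animal 18 and -1.57 in animal 40, and it was 1.13 in animal 14. Among animals paired in Lexogen alone, animal 29 had a median of -1.80 and animal 23 of -0.34.

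**Figure D2:**
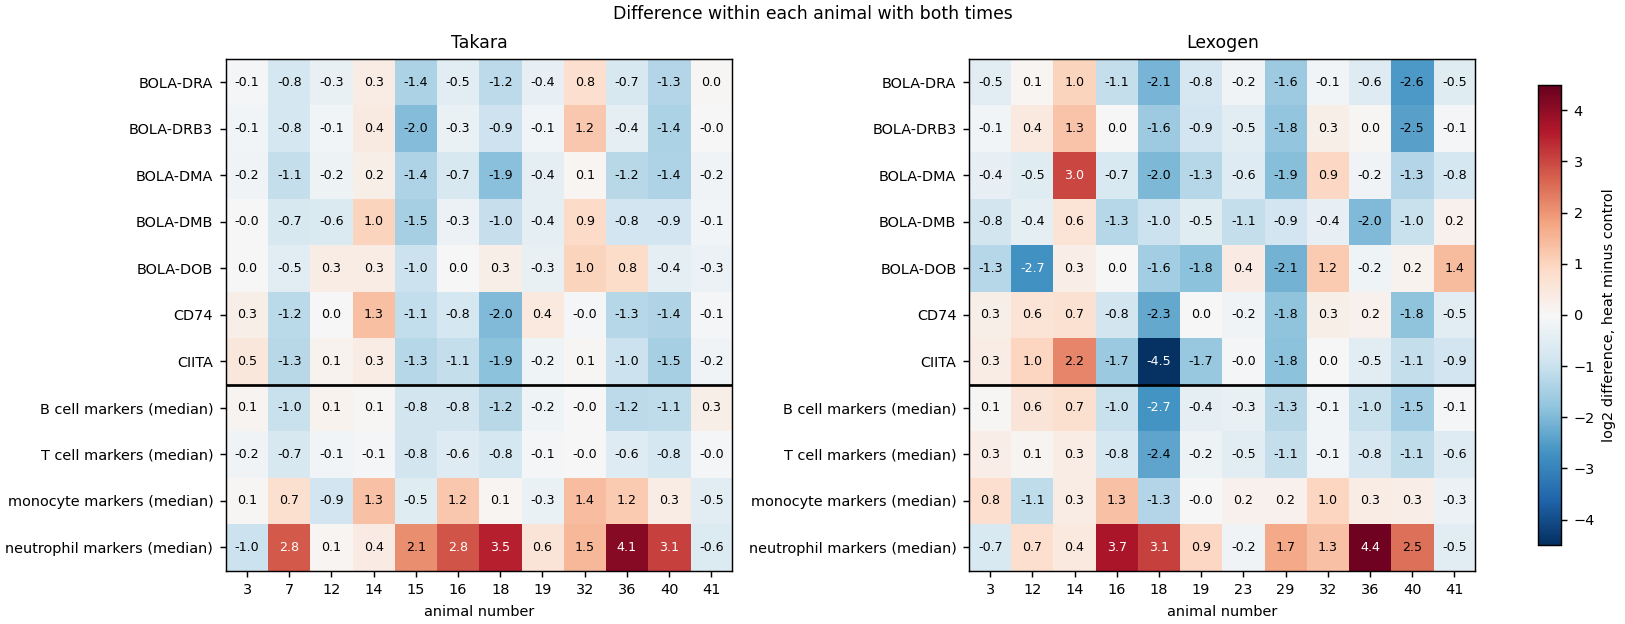
Heat minus control within each animal with both times, in log2(CPM + 1), for the 7 members and for the medians of 4 lists of cell type markers (rows), with blue for lower and red for higher under heat stress. In Takara the median over the members ran from -1.39 in animal 15 to 0.76 in animal 32, and the neutrophil median from -0.97 in animal 3 to 4.09 in animal 36.

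The other class II chains gave calls only in Takara and only with the animal in the model. Of the 8 further chains listed in the files, 6 were tested in Takara and 3 in Lexogen, and edgeR called 0 at an adjusted p under 0.05 in either kit (1 and 0 at an unadjusted p under 0.05). BOLA-DOA (chromosome 23, 7317350 to 7323432), the partner of BOLA-DOB, averaged 26.8 CPM in Takara controls and 18.5 CPM under heat stress (log2 fold change -0.53, SE 0.23, edgeR adjusted p = 0.0885). With the animal as a block, 2 of 6 fell in Takara, beside 10.1% of genes. BOLA-DOA fell by 0.73 on the log2 scale (edgeR adjusted p = 0.0134) and the DQ alpha gene BOLA-DQA2 by 0.87 (edgeR adjusted p = 0.0488). Without the block, BOLA-DQA2 had a Takara log2 fold change of -0.40 (SE 0.73, edgeR adjusted p = 0.70). In Lexogen with the block, 0 of 3 fell, beside 0.153% of genes. BOLA-DOA stood there at -0.24 (edgeR adjusted p = 0.925) and BOLA-DQA2 at -0.55 (edgeR adjusted p = 0.836). BOLA-DRB2, BOLA-DQA5, BOLA-DQB and BOLA-DYB averaged under 5 CPM in both kits, and BOLA-DYA had 0 counts in all 26 Lexogen libraries.

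**Figure D3:**
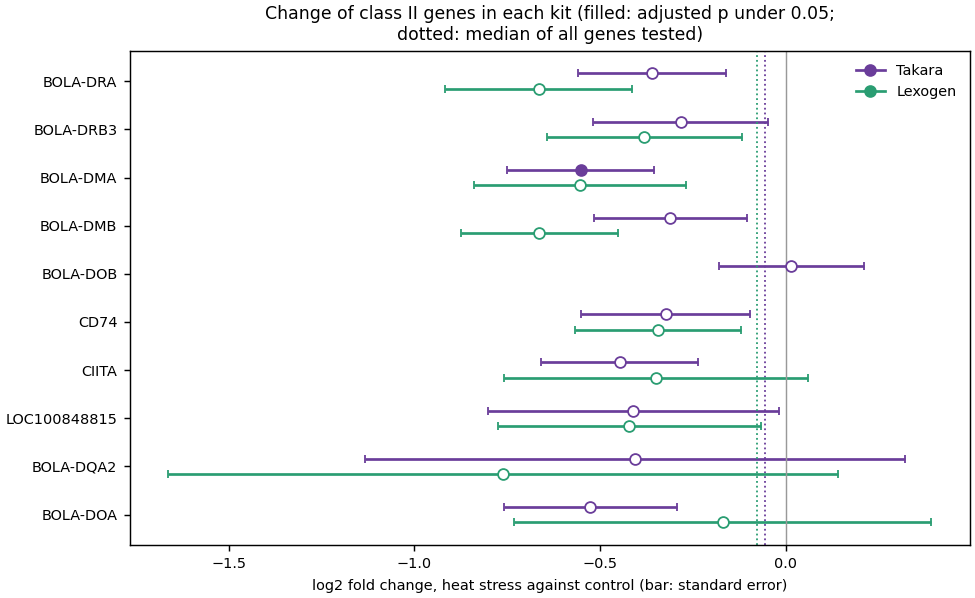
Log2 fold change of the 7 members and 3 further class II chains in Takara (purple) and Lexogen (green), with bars for the standard error, filled points for an adjusted p under 0.05 and dotted lines at the median of all genes tested. BOLA-DMA in Takara is the single filled point, and BOLA-DOB has no Lexogen point because it was not tested there.

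BOLA-DQA2 (chromosome 23, 25583031 to 25589201) was close to 0 at both times in some animals. In animals 12, 14 and 41 it stayed at or below 3.44 CPM in all 6 Takara libraries and at or below 0.268 CPM in their Lexogen libraries. In the other 11 animals Takara values ran from 11.4 to 245 CPM. The low end of that range was the heat stress library of animal 15 (11.4 CPM), whose control held 125 CPM. In Lexogen, BOLA-DQA2 held 17.5 CPM in the control and 0.253 CPM under heat stress in animal 18, 19.3 and 0.208 CPM in animal 29, and 23.3 and 0.121 CPM in animal 40, and these 3 heat stress values rest on 1 or 2 reads each. The Takara libraries of the same heat stress samples held 60.9, 47.6 and 13.6 CPM, and over the 12 Lexogen pairs BOLA-DQA2 was lower in 4 and higher in 7. LOC100848815 (chromosome 23, 25691259 to 25695296), which carries the RefSeq synonym BoLA-DQA1, was read at 27.6 CPM or more in every Takara library, so the low BOLA-DQA2 animals still had reads of a DQ alpha gene. In animal 12 this gene held 817 CPM in the control and 617 CPM under heat stress, and in animal 36 it held 45.9 and 27.6 CPM. DQ genes differ between cattle haplotypes in number and sequence, and whether such differences set these counts was not tested.

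**Figure D4:**
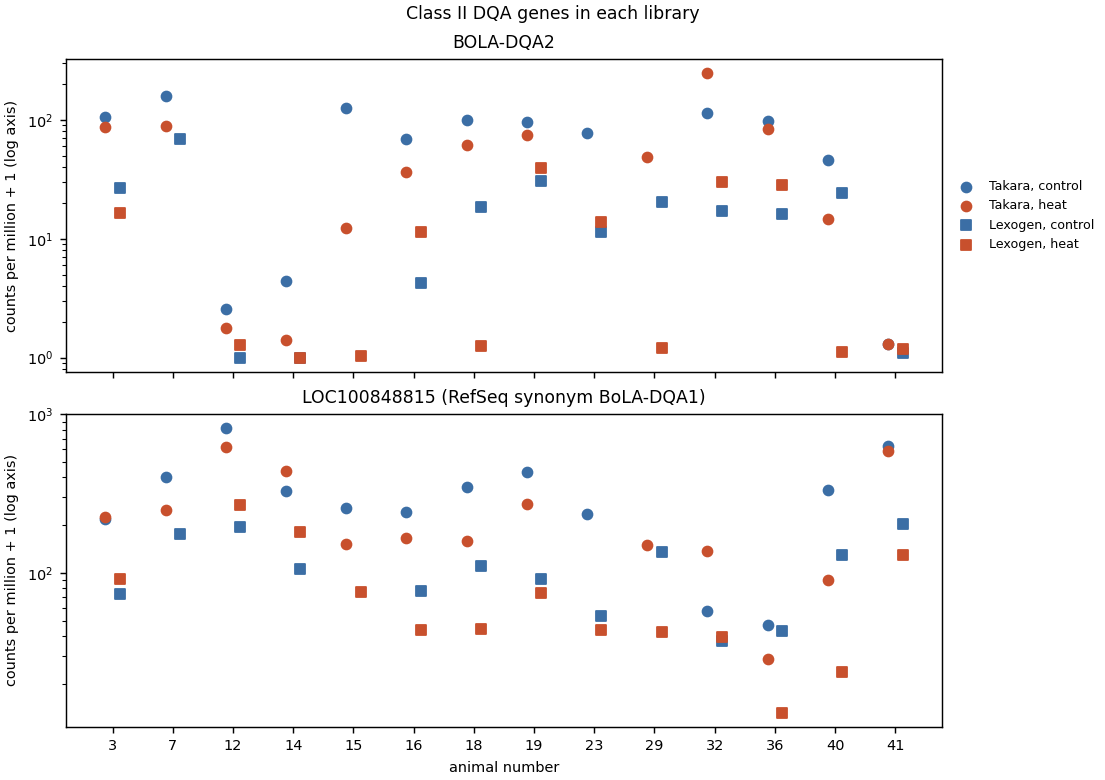
CPM plus 1 (log axis) of BOLA-DQA2 and LOC100848815 in each library by animal, with circles for Takara, squares for Lexogen, blue for control and red for heat stress. BOLA-DQA2 was at or below 3.44 CPM in every Takara library of animals 12, 14 and 41, where LOC100848815 was well detected.

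Among the factors that act with or on CIITA, 2 regulators of CIITA rose in both kits. PRDM1, the repressor Blimp-1 that silences CIITA as B cells become plasma cells, averaged 15.4 CPM in Takara controls and 50.4 CPM under heat stress (log2 fold change 1.71, SE 0.32, edgeR adjusted p = 0.000534). In Lexogen it rose by 1.05 (SE 0.28, edgeR adjusted p = 0.0182). SPI1, the myeloid and B cell factor PU.1, rose from 181 to 401 CPM in Takara (log2 fold change 1.15, edgeR adjusted p = 0.00300) and by 1.07 in Lexogen (edgeR adjusted p = 0.0305). CREB1 rose in Takara (0.44, edgeR adjusted p = 0.0290) and stood at -0.71 (edgeR adjusted p = 0.637) in Lexogen. Of the list of 11 factors, 3 rose and 0 fell in Takara, beside 18.4% of genes up-regulated, with a median log2 fold change of 0.21 against -0.05 over all genes. In Lexogen 2 of the 10 tested rose, beside 5.09% of genes, and the median was -0.29 against -0.08 over all genes. There 7 of 10 were below 0, beside 55.8% of all genes.

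The genes that cut antigen, turn class II over at the surface or deliver co-stimulation gave a few rises. CTSH, an endosomal cysteine protease, rose in Takara (log2 fold change 0.67, SE 0.21, edgeR adjusted p = 0.0179) as 1 of 6 proteases and reductases tested, and had 0.53 in Lexogen (edgeR adjusted p = 0.359). MARCHF8, a ubiquitin ligase of the MARCH family that takes membrane proteins including class II off the surface, rose in both kits. The rise was 1.05 (SE 0.23, edgeR adjusted p = 0.00155) in Takara and 1.21 (SE 0.32, edgeR adjusted p = 0.0195) in Lexogen. It was 1 of 3 turnover genes tested. MARCHF1 stood at -0.25 in Takara (edgeR adjusted p = 0.179) and -0.48 in Lexogen (0.484). CD83 stood at -0.0019 in Takara (edgeR adjusted p = 0.996) and -1.31 in Lexogen (0.275). CD80, which binds CD28 and CTLA-4 on T cells, rose from 22.3 to 69.6 CPM in Takara (log2 fold change 1.64, edgeR adjusted p = 0.000680) and by 1.03 in Lexogen (edgeR adjusted p = 0.0202). It was the only 1 of 5 co-stimulatory genes to pass in either kit. In Takara the counts of 1 in 6 and 1 in 5 stand beside 18.4% of all genes up-regulated, a share near that of these lists. The turnover count of 1 in 3 stands beside the same share in Takara and beside 5.09% in Lexogen.

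The calls in Lexogen depended on the model. With the animal as a block, the Lexogen log2 fold change was 0.74 for PRDM1 (edgeR adjusted p = 0.159), 0.87 for SPI1 (0.126), 1.01 for MARCHF8 (0.128) and 0.81 for CD80 (0.185), where 0.415% of all genes were up-regulated. In Takara all 4 and CTSH kept an adjusted p under 0.05 with the block, beside 14.9% of genes up-regulated, and CREB1 did not.

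The class I pathway, which presents peptides from within the cell, was mixed. In Takara 1 of 13 genes rose, beside 18.4% of all genes, and 2 fell, beside 10.5%. B2M, the light chain of class I, rose by 0.31 (edgeR adjusted p = 0.0454), a call lost with the animal as a block (0.28, edgeR adjusted p = 0.114). The immunoproteasome subunits PSMB9 (-0.45, edgeR adjusted p = 0.0203) and PSMB10 (-0.41, edgeR adjusted p = 0.0470) fell. In Lexogen B2M stood at -0.02 (edgeR adjusted p = 0.981), PSMB9 at 0.03 (0.980) and PSMB10 at -0.37 (0.646). The list of 13 genes had a median log2 fold change of 0.06 in Takara and 0.03 in Lexogen, where edgeR called 0 of 13 (1 at an unadjusted p under 0.05). The class II members had medians of -0.32 and -0.47, beside -0.05 and -0.08 over all genes tested.

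**Figure D5:**
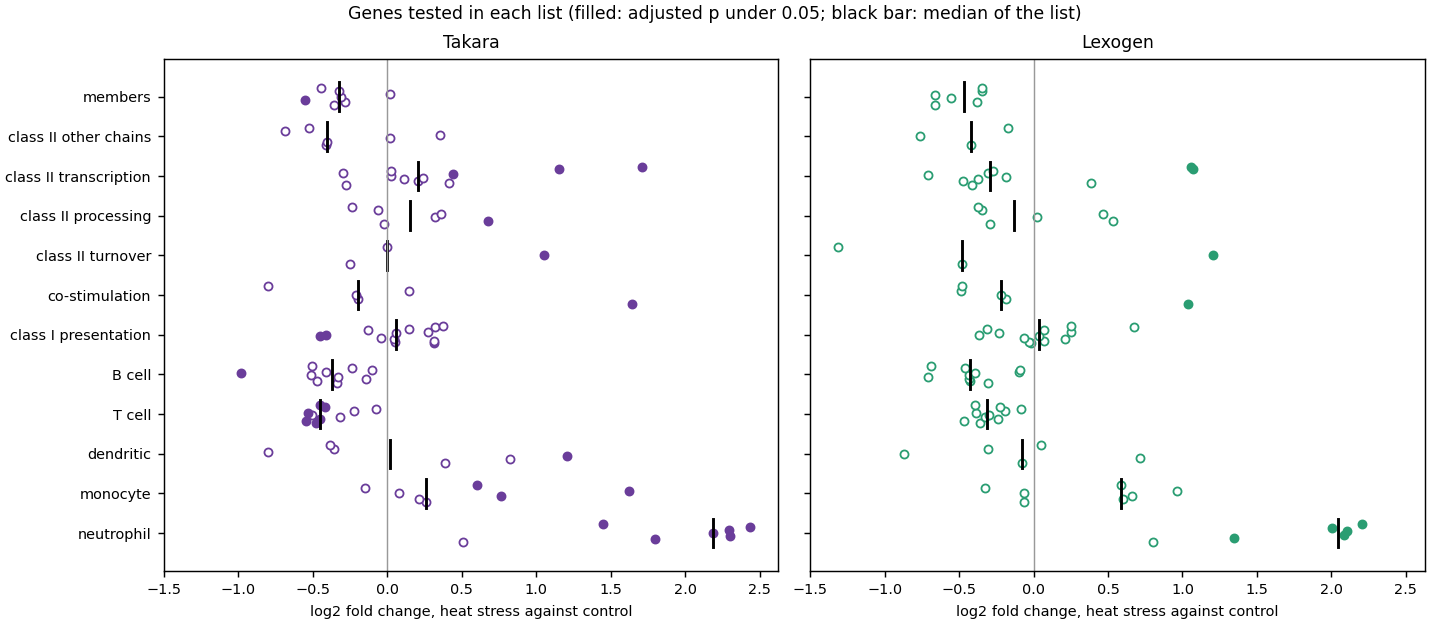
Log2 fold change of every gene tested in each list, by kit, with filled points for an adjusted p under 0.05 and black bars for the median of the list. The medians of the members were -0.32 in Takara and -0.47 in Lexogen, those of the neutrophil markers 2.18 and 2.04.

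Markers of the blood cell types were read in the same libraries. All 10 B cell markers had a log2 fold change below 0 in both kits, beside 55.0% of all genes in Takara and 55.8% in Lexogen. Their medians were -0.37 in Takara and -0.43 in Lexogen, against -0.05 and -0.08 over all genes. Of the 10 markers, 1 fell in Takara, the B lymphoid kinase BLK (-0.98, SE 0.38, edgeR adjusted p = 0.0498), beside 10.5% of all genes, and 5 fell with the animal as a block, beside 10.1%. In Lexogen edgeR called 0 of 10, beside 0.459% of genes, and also 0 with the block, beside 0.153%. At an unadjusted p under 0.05 there was 1 marker, beside 1877 of 11108 genes in either direction. With the block there were 3, beside 1584 of 11087. CR2, a complement receptor of B cells, was least changed (-0.10, edgeR adjusted p = 0.698). The summed level of the list ran from 612 to 1075 CPM in Takara controls and from 248 to 1076 CPM under heat stress.

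In Takara 6 of 10 T cell markers fell, beside 10.5% of all genes, led by CD3E (-0.55, SE 0.19, edgeR adjusted p = 0.0304), while CD8A stood at -0.08 (edgeR adjusted p = 0.753). The summed list ran from 1099 to 2087 CPM in controls and from 643 to 1674 CPM under heat stress. The median was -0.31 in Lexogen, where edgeR called 0 of 10, also at an unadjusted p under 0.05, beside 0.459% of genes down-regulated.

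Neutrophil markers had the largest median change of the lists given here, 2.18 in Takara and 2.04 in Lexogen. In Takara 6 of 7 tested rose, beside 18.4% of all genes, with MMP9 highest (log2 fold change 2.44, SE 0.45, edgeR adjusted p = 0.000545) and CSF3R at 0.51 (edgeR adjusted p = 0.164), and in Lexogen 5 of 6 rose, beside 5.09%. With the animal as a block the counts were 6 of 7 in Takara, beside 14.9% of genes up-regulated, and 0 of 6 in Lexogen, beside 0.415%. All 6 had an unadjusted p under 0.05 (edgeR) in Lexogen with the block, as did 1584 of 11087 genes in either direction. The summed level ran from 4208 to 19449 CPM in Takara controls and from 3651 to 108120 CPM under heat stress. In Takara 3 of 7 monocyte markers rose, beside 18.4% of genes, led by CD163 (1.62, SE 0.40, edgeR adjusted p = 0.00368), and LYZ stood at -0.15 (edgeR adjusted p = 0.746). With the animal as a block CD163 alone rose (edgeR adjusted p = 0.0486), beside 14.9% of genes. In Lexogen edgeR called 0 of 7 monocyte markers, beside 5.09% of genes up-regulated. At an unadjusted p under 0.05 there were 3, beside 1877 of 11108 genes in either direction. CD163 stood there at 0.97 (edgeR adjusted p = 0.223), and at 0.21 (0.873) with the block. The summed monocyte list ran from 230 to 2348 CPM in Takara controls and from 669 to 2037 CPM under heat stress. Of the dendritic cell markers, CLEC9A averaged 0.265 CPM and CLEC10A 0.532 CPM in Takara controls, while TCF4 averaged 83.7 CPM and CCR7, which T cells also express, 251 CPM. The summed list ran from 238 to 587 CPM in controls and from 226 to 414 CPM under heat stress. BATF3 was 1 of 6 to rise in Takara (1.21, SE 0.43, edgeR adjusted p = 0.0349), beside 18.4% of all genes, a share near that of the list. The BATF3 call was lost with the animal as a block (1.12, edgeR adjusted p = 0.0557). Without the block, ZBTB46 stood at -0.80 (edgeR adjusted p = 0.125). Of 4 platelet and 3 erythroid markers tested in Takara, edgeR called 0, also at an unadjusted p under 0.05.

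Animal by animal, the marker lists can be set beside the members. In Takara the median over the 7 members, the neutrophil median and the B cell median were -0.00076, -0.97 and 0.14 in animal 3. They were -0.80, 2.77 and -1.02 in animal 7, -0.12, 0.07 and 0.15 in animal 12, and 0.34, 0.37 and 0.06 in animal 14. They were -1.39, 2.08 and -0.84 in animal 15, -0.47, 2.84 and -0.81 in animal 16, and -1.17, 3.49 and -1.25 in animal 18. They were -0.32, 0.59 and -0.20 in animal 19 and 0.76, 1.48 and -0.02 in animal 32. They were -0.85, 4.09 and -1.19 in animal 36, -1.36, 3.08 and -1.14 in animal 40, and -0.12, -0.61 and 0.27 in animal 41. The relation between these medians was not tested. Scaling by total counts in place of TMM moved the median of all Takara genes from -0.05 to -0.27. The part of cell composition in the member values was not tested.

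The members also varied together within a time of day. After centring each time on its mean, the 15 pairs of members other than BOLA-DOB had Pearson correlations of 0.64 to 0.95 (median 0.86) over the 26 Takara libraries. BOLA-DOB had 0.23 to 0.55 with the others. The genes most like the mean of the members in Takara were SRSF9 (r = 0.88), SWAP70 (0.87), EIF6 (0.87), LOC100847382 (0.87), IDH2 (0.87), CD40 (0.86), CD79B (0.86) and ILF2 (0.86), out of 12613 genes. Of these, CD79B was in the B cell list and CD40 in the co-stimulation list, and the rest were in none of the lists used here. The same genes had r of 0.30 to 0.54 in the 26 Lexogen libraries. These correlations are descriptions over libraries that share animals and depth.

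Both kits saw the members, at different levels. In 24 RNA samples prepared with both kits all 7 members were higher in Takara, beside 45.3% of 13354 genes. The log2 difference was 1.15 (SE 0.10) for BOLA-DMB, 1.22 (SE 0.11) for CD74, 1.25 (SE 0.14) for BOLA-DMA, 1.30 (SE 0.09) for BOLA-DRA, 1.83 (SE 0.19) for CIITA and 1.92 (SE 0.11) for BOLA-DRB3. For BOLA-DOB it was 6.88 (SE 0.49), and the median of all genes was 0.48. The largest edgeR adjusted p among the 7 was 5.5e-09.

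The change with heat stress was not shown to differ between kits for any member. The interaction of kit and time passed for 0 of 7 members, also at an unadjusted p under 0.05, and for 0 of 13354 genes (edgeR, 0.00% called, 526 at an unadjusted p under 0.05). The interval of the difference (95%, Takara minus Lexogen, log2) was -0.11 to 0.59 for BOLA-DRA and -0.13 to 0.62 for BOLA-DMB. It was -0.87 to 0.24 for BOLA-DMA and -0.83 to 0.67 for CIITA, so differences of that size remain possible.

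The sample numbers form 2 series, treated here as 2 runs of 8 and 6 animals, and the values within each run are given here. In Takara run 1 the log2 fold change was -0.67 for BOLA-DMA, -0.62 for BOLA-DMB, -0.58 for BOLA-DRA, -0.55 for BOLA-DRB3, -0.53 for CIITA, -0.39 for CD74 and -0.15 for BOLA-DOB. In run 2 it was -0.38 for BOLA-DMA, 0.11 for BOLA-DMB, -0.07 for BOLA-DRA, 0.07 for BOLA-DRB3, -0.32 for CIITA, -0.23 for CD74 and 0.22 for BOLA-DOB. In neither run did a member pass at an edgeR adjusted p under 0.05. BOLA-DMA and BOLA-DMB had an unadjusted p under 0.05 in run 1, as did 4702 of 12791 genes.

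In Lexogen, run 1 gave -1.05 for BOLA-DMA, -0.92 for BOLA-DRA, -0.72 for BOLA-DRB3, -0.64 for CD74, -0.58 for BOLA-DMB and -0.42 for CIITA. Run 2 gave 0.16, -0.31, 0.12, 0.09, -0.74 and -0.28 in the same order. The interaction of run and time passed for 0 members in Takara, beside 2.58% of genes, and for 0 in Lexogen, beside 0.0180%. BOLA-DMA in Lexogen had the smallest unadjusted p of these (0.0399, edgeR adjusted p = 0.597).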

How the data were processed

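The deposited values are raw counts of uniquely mapped reads per gene (unstranded, sense and antisense), which the authors made with STAR 2.7.10b on the ARS-UCD2.0 genome after trimming in Trimmomatic 0.39. The column they analysed is not given in the sources used here, and the unstranded counts were used. The members and gene lists were chosen with earlier results of these data known.

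Each kit was fitted in edgeR 4.0.16 (R 4.3.3) with filterByExpr, TMM and a quasi-likelihood test of time alone, as in the study's model, with Benjamini-Hochberg adjustment over all genes tested and an adjusted p under 0.05. Kit terms had the RNA sample as a block. Libraries of one calf share its number in the labels, so the animal was run as a block in the 12 pairs per kit. Other alternatives were sense counts, no filter, other scalings, DESeq2 1.42.0, animal 20 in either group, runs, and each animal left out. Steps were tested on simulated data. All members, the other class II chains in the files and, from each other list, genes called or with the highest and lowest Takara change were named. Reads carry no molecular identifiers, so the precision given covers these libraries only.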

Additional observations from a re-analysis of the deposited data

Results flagged for a closer look

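Reads on the strand opposite to the member genes were above the 3 counts that a count of 0 allows, in a column the comparisons did not use. Over the 26 Takara libraries they numbered 341 for BOLA-DRA, 3713 for BOLA-DRB3, 1610 for BOLA-DMA, 153 for BOLA-DMB, 123 for BOLA-DOB, 1131 for CD74 and 59 for CIITA. Over the 26 Lexogen libraries they numbered 50 for BOLA-DRB3, 234 for BOLA-DMA and 39 for CIITA. Over all genes, the opposite strand held a median of 5.11% of stranded reads in Takara and 5.38% in Lexogen libraries, against 3.86% and 1.47% for BOLA-DMA.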

How the results depend on the processing

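The number of members called in Takara was 1 of 7 and went to 2 with the animal as a replicate block and to 0 with sense-strand counts, with animal 20 as a control, and in run 1 or run 2 alone. Over all genes, 1321 of 12620 were down-regulated with time alone, 1281 of 12651 with the block and 1366 of 12325 with sense-strand counts. The numbers were 751 of 12791 in run 1 alone and 323 of 12661 in run 2 alone. With animal 20 as a control, 0 of all 12652 genes passed (3804 at an unadjusted p under 0.05). Leaving out each animal in turn gave 0 to 1 in Takara and 0 to 2 in Lexogen. Over all genes, the number down-regulated in those settings ran from 787 to 1632 in Takara and from 16 to 64 in Lexogen. In Lexogen the count was 0 of 6 and went to 2 without the filter on low counts, and to 1 with sense-strand counts, DESeq2 size factors, total counts as library size, DESeq2 and animal 20 as heat stress. The replicate block, which pairs the libraries of each animal, left it at 0. Over all genes, the number down-regulated in Lexogen also went from 51 of 11108 to 1572 of 21596 without the filter. Under the settings that called 1 member, it ran from 52 (total counts) to 190 (DESeq2).

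The sign turned in run 2 alone for BOLA-DRB3 (0.068) and BOLA-DMB (0.11) in Takara and for BOLA-DRB3 (0.12), BOLA-DMA (0.16) and CD74 (0.091) in Lexogen. BOLA-DOB in Takara turned to -0.0028 without the filter, -0.20 with total counts, -0.075 with animal 20 as heat stress and -0.15 in run 1, and lay between -0.046 and 0.10 with single animals left out. The cause was not tested. Of the 182 member values under the alternatives in Takara, 159 kept their direction and side of the threshold, as did 143 of 156 in Lexogen. Using the paired libraries alone without the animal in the model was chosen after seeing the data. Scaling by total counts turned the split of Takara calls from 2325 up and 1321 down to 1303 up and 2185 down. BOLA-DOB was left untested in Lexogen by the filter on low counts, with 461 reads over 26 libraries.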

Other observations

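The 2 libraries of animal 20 entered only the alternative fits that placed this animal in either group. Their values are given as CPM of all reads on genes, without TMM scaling. In Takara it had 326 CPM of BOLA-DRA, 201 of BOLA-DRB3, 36.1 of BOLA-DMA, 134 of BOLA-DMB, 17.1 of BOLA-DOB, 90.6 of CD74 and 21.9 of CIITA. In Lexogen it had 136 CPM of BOLA-DRA, 89.4 of BOLA-DRB3, 20.7 of BOLA-DMA, 62.2 of BOLA-DMB, 120 of CD74 and 10.1 of CIITA.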
